A study of Mus musculus with 65 samples.

Results

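Mammalian apparent LTR retrotransposons (ERVL-MaLR) are described here through every copy that the repeat count table assigns to the class LTR and the family ERVL-MaLR. The rule used only these annotated names and found 454918 copies in 108 subfamilies, of 3649575 transposable element copies in 1057 subfamilies and 3725827 repeat rows in all. At least 1 read was counted in some library at 143443 of the copies (31.5%) and at 107 of the subfamilies. Each copy is named by its subfamily and the running number at the end of its name in the table, as in MTD 2315871. The table gives neither coordinates nor sequences of the copies, so none are printed.

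ERVL-MaLR elements are ancient endogenous retrovirus-like elements without an envelope gene, most of which remain in the genome as solitary long terminal repeats (LTRs). They belong to the class III retroviruses, in mice mainly as the MT and ORR1 lineages, with the older MLT lineage shared with other mammals. Their LTRs carry promoters and splice sites, and MT LTRs are known for driving genes in the mouse oocyte and early embryo. Within the names, "-int" marks the internal part of an element and the other names mark LTRs.

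PolyA RNA was sequenced from 65 libraries in 19 groups, in bone marrow derived dendritic cells (BMDCs) of C57BL/6 mice and in RAW264.7 cells, a macrophage line labelled BALB/c. The unstimulated experiment held 3 libraries each of WT, Suv39h1KO, IfnarKO and Suv39h1KO IfnarKO BMDCs. The LPS time course held BMDCs at 0, 2 and 4 h: WT with 6, 5 and 6 libraries, and MyD88KO and TrifKO with 3 libraries at each time, all labelled wild type for Suv39h1 and Ifnar. The RAW264.7 experiment held 3 libraries at 0 and 2 h for each of a control guide RNA, guide 1 and guide 2, labelled wild type for all 4 genes. LPS, a bacterial cell wall component sensed by TLR4, was used at 100 ng/mL. LPS signals through the adaptors MyD88 and TRIF, and TRIF leads to type I interferon. Interferon acts through the receptor IFNAR, and SUV39H1 is a histone H3 lysine 9 methyltransferase. Animal age and sex, the part of each gene deleted, the guides' targets, and whether a guide line is 1 clone or a pool were not given in the labels. RAW264.7 libraries at 0 h carry the stimulation label LPS with a time of 0, and their titles call the cells DC.

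Some labels and libraries stood apart. Up to 2 WT libraries of the time course share a title and cohort, 1 from each of 2 library sets numbered low and high, so that p-values over WT libraries may be too small. All MyD88KO libraries were in the low set and all TrifKO libraries in the high set. Ticam1, the gene for TRIF, stood at 35.4, 35.1 and 37.1 counts per 1000000 gene counts (CPM) in the 3 libraries labelled TrifKO at 0 h, within the 31.3 to 44.5 of WT. It stood at 43, 48.5 and 2.98 CPM at 2 h and at 42.3, 36.5 and 2.46 CPM at 4 h, the low value being replicate 3 both times. The label thus covers libraries with unlike Ticam1 counts, and replicate 3 at 0 h, at 37.1 CPM, did not share the low value. Why they differ was not tested. These groups are therefore called the libraries labelled TrifKO. Where counts remain, a transcript left after a deletion outside the counted part would not test the label. Suv39h1 stood at 0.111 to 0.37 CPM in the Suv39h1KO libraries against 36.1 to 66.7 CPM in the others of that experiment. Myd88 was lower in MyD88KO than in WT libraries at each time without being absent, at 55.95 to 60.5 against 86.9 to 93.2 CPM at 0 h, 99.5 to 119 against 258 to 278 CPM at 2 h and 83.2 to 92.2 against 292 to 376 CPM at 4 h. Ifnar1 stood at 134 to 156 CPM in IfnarKO and 122 to 147 CPM in Suv39h1KO IfnarKO libraries, against 171 to 199 CPM in WT. Genotype names below are those of the labels, since such counts do not show whether a working protein is left. Ifit1, an interferon-stimulated gene, stood at 0.142 to 0.275 CPM in IfnarKO against 5.12 to 14 CPM in WT libraries, and at 4 h of LPS at 26.1 to 154 CPM in the libraries labelled TrifKO against 1169 to 2118 CPM in WT. Ptgs2, the gene for the LPS-induced cyclooxygenase, stood at 10.01 to 18.5 CPM in MyD88KO against 528 to 1476 CPM in WT at 4 h. The 7 dendritic cell markers checked summed to 9774 to 21153 CPM over BMDCs. They summed to 102 to 240 CPM over RAW264.7 cells, where Flt3 and Cd209a were under 0.1 CPM in every library and 6 macrophage markers summed to 4898 to 7968 CPM. Mast cell markers summed to 27.4 to 170 CPM and granulocyte markers to 64.7 to 1173 CPM in BMDCs, and their part in the results was not tested.

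The ERVL-MaLR counts were few beside those of genes. Each library held 36879570 to 95292653 gene counts and 153509 to 468293 ERVL-MaLR counts (median 290382), spread over 19640 to 39797 copies with at least 1 count. The counts were concentrated: over all libraries the 10 copies with most counts held 13.8% of them, 100 copies 31.7% and 1000 copies 59.1%. The 10 top copies of a single library held between 7.19% and 29.6% (median 14.2%). Counts were not divided by the length of a copy, so they are compared between groups and not between copies or subfamilies.

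The MT lineage of 20 subfamilies made up 185387 copies and 47.5% of the counts, ORR1 with 29 subfamilies 184967 copies and 36.8%, and MLT with 59 subfamilies 84564 copies and 15.7%. Internal parts were 9.14% of the copies and 15.8% of the counts. The subfamily with most counts was MTD with 15.6%, followed by MTC (6.28%), ORR1E (5.06%), ORR1D1 (3.97%) and ORR1A2 (3.59%). Single copies weighed on several subfamilies. MTD 3847672 held 22.6% of the MTD counts and 3.51% of all ERVL-MaLR counts, MLT1D 1084922 held 61.9% of MLT1D, and MLT1H 2652620 held 87.3% of MLT1H.

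LPS raised the ERVL-MaLR family in WT BMDCs. In the 6 libraries at 0 h the family summed to 3827 CPM at the lowest, 5229 at the median and 5743 at the highest. At 2 h the 5 libraries stood at 4458, 5683, 6531, 6687 and 6872 CPM, and at 4 h the 6 libraries ran from 5483 through a median of 5910 to 6690 CPM. The groups overlapped on this scale, and the means were 5026 ± 666 (SD, n = 6), 6046 ± 998 (n = 5) and 5984 ± 498 CPM (n = 6).

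The size of the rise depended on the scaling. The TMM factors of edgeR, which align the bulk of genes, differed by -0.38 (2 h) and -0.65 (4 h) on the log2 scale between stimulated and unstimulated WT libraries. With these factors the family rose by a log2 fold change of 0.66 ± 0.10 (SE) at 2 h and 0.90 ± 0.10 at 4 h, 1.58-fold and 1.87-fold (adjusted p = 4.0e-06 and 1.8e-09, edgeR quasi-likelihood test with Benjamini-Hochberg adjustment over all repeats of the same level, as for every adjusted p below unless another test is named). On plain gene totals the same changes were 0.27 and 0.25, and on totals of the transposable elements themselves 0.34 and 0.34, with the same direction and past the threshold of 0.05 each time. The median gene moved by -0.43 and -0.72 on plain gene totals and by -0.05 and -0.07 with the TMM factors. TMM-scaled values are used for the fold changes below, and CPM of plain gene totals for levels. Between 2 and 4 h the WT family sum differed by 0.24 (adjusted p = 0.067), which passed the threshold without the 4 h replicate 2 of the low set (0.29, 0.028), the 2 h replicate 1 of the high set (0.30, 0.023) or the 2 h replicate 2 of that set (0.32, 0.016). The same cohort numbers paired the WT libraries within a set, and with the replicate block that difference was 0.31 (adjusted p = 2.5e-05), against -0.01 on plain gene totals.

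**Figure D1:**
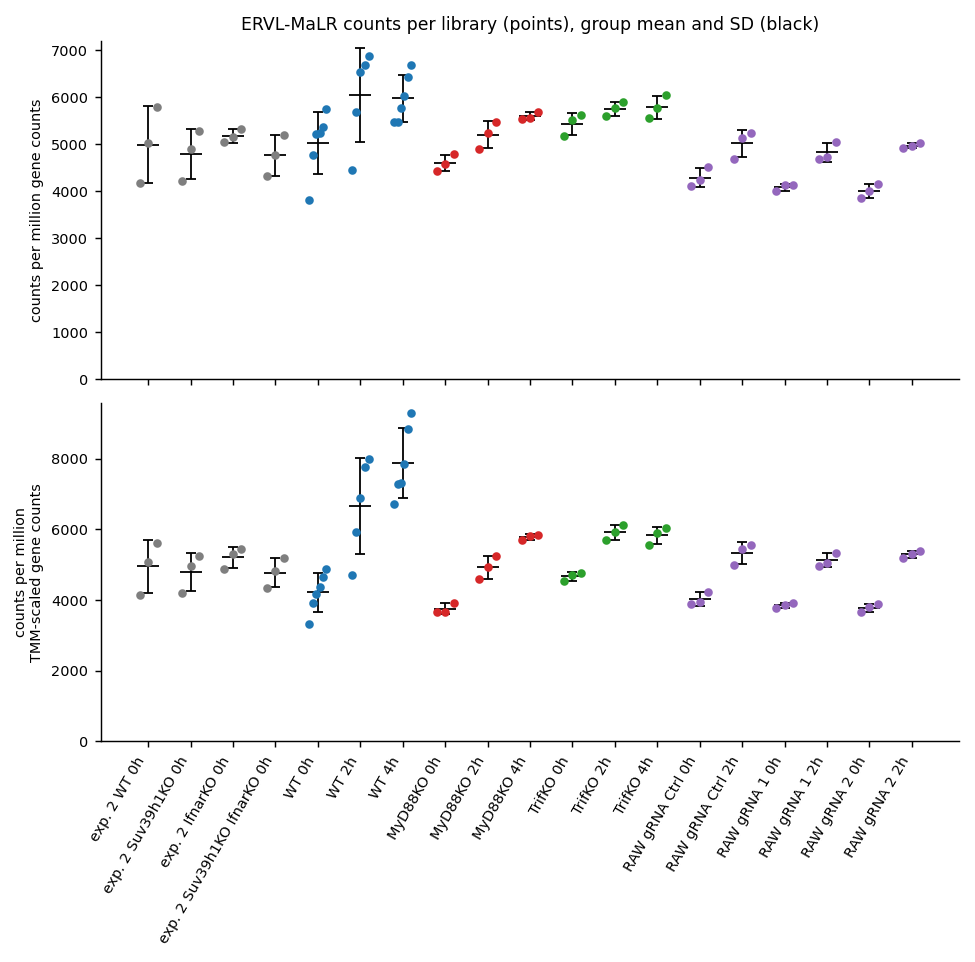
ERVL-MaLR family sum in every library of the 19 groups, in CPM without TMM scaling (top) and with it (bottom). Points are libraries, bars the mean and SD. In the top panel the WT time course overlaps between 0 h (3827 to 5743) and 4 h (5483 to 6690), while in the bottom panel the means go from 4216 to 7884.

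The other LTR families rose as well in the same fit with the TMM factors. WT log2 fold changes at 2 and 4 h were 1.32 and 1.66 for ERV1, 0.58 and 1.02 for ERVK and 0.39 and 0.60 for ERVL. The share of ERVL-MaLR among all LTR counts, which does not depend on the scaling, went down in WT cells. It lay between 36.37% and 37.95% over the 6 libraries at 0 h, at 33.09, 34.19, 35.95, 36.01 and 36.47% at 2 h, and between 31.64% and 34.58% at 4 h. No library at 4 h reached the range of 0 h, whereas 1 of the 5 at 2 h did. The mean fell from 37.1 ± 0.601% to 35.1 ± 1.44% at 2 h (two-sided exact permutation p = 0.0043, adjusted p = 0.0544 over 88 share tests) and to 32.99 ± 1.31% at 4 h (exact p = 0.0022, adjusted p = 0.0317). Within the high set the differences were -2.82 and -4.94 percentage points and within the low set -0.73 and -3.20, where 3 against 3 libraries cannot go below an exact p of 0.1. ERV1 rose from 16.9% to 24.8% and 25.1% of the LTR counts over the same times. ERVL fell as well, from 9.55% to 7.52% and 6.90% (exact permutation, adjusted p = 0.0317 at each time). ERVK fell from 36.3% to 32.4% and 34.9% (same test, adjusted p = 0.0317 and 0.0879).

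The internal share of the counts was lowest at 2 h. The -int share of ERVL-MaLR counts was 14.98 to 16.32% over WT libraries at 0 h, 11.83 to 14.03% at 2 h and 15.39 to 17.54% at 4 h, so that the 2 h libraries lay below both other groups. MyD88KO cells had 14.56, 14.68 and 15.33% at 0 h, 12.19, 12.78 and 12.78% at 2 h and 15.72, 15.92 and 16.65% at 4 h. The libraries labelled TrifKO had 15.86, 16.20 and 16.20%, then 12.66, 13.14 and 13.32%, then 14.22, 15.41 and 15.63%. In each genotype all 2 h libraries were lower than all libraries at 0 and 4 h, a pattern noticed after the values were seen and not tested as a share. RAW264.7 cells with the control guide had 17.63, 17.85 and 18.13% at 0 h and 16.76, 17.18 and 17.39% at 2 h.

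**Figure D2:**
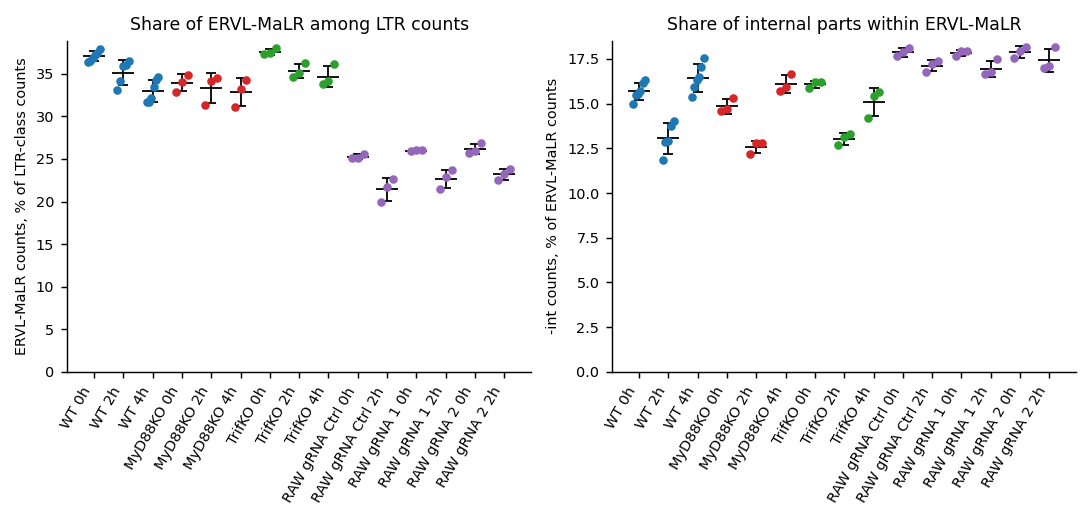
Share of ERVL-MaLR in all LTR counts (left) and share of internal (-int) parts in ERVL-MaLR counts (right), in percent, for every library of the LPS time course and the RAW264.7 experiment; bars give the mean and SD. The left share goes down with LPS in WT (37.1 to 32.99%) and in RAW264.7 cells with the control guide (25.3 to 21.5%), and the right share is lowest at 2 h in each BMDC genotype.

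With the TMM factors all 3 lineages rose in WT cells. MLT, the oldest lineage, rose by 0.90 ± 0.07 at 2 h and 0.90 ± 0.06 at 4 h (adjusted p = 6.9e-13 and 1.5e-13), and MT rose by 0.75 ± 0.11 and 1.04 ± 0.10 (6.9e-07 and 2.6e-10). ORR1 rose by 0.42 ± 0.12 and 0.72 ± 0.11 with the TMM factors (0.0019 and 1.0e-06) but differed by only 0.03 and 0.07 on plain gene totals and by -0.12 and -0.16 on totals of transposable elements, so that its direction depends on the scaling. Mean levels moved from 725 ± 66.7 to 1036 ± 102 and 862 ± 16.2 CPM for MLT, from 2387 ± 295 to 3056 ± 562 and 3117 ± 293 CPM for MT, and from 1914 ± 306 to 1954 ± 342 and 2005 ± 220 CPM for ORR1. Internal parts of MLT were at 0.08 at 2 h (adjusted p = 0.29) and rose by 0.47 ± 0.06 at 4 h, while MLT LTRs rose by 0.94 ± 0.07 and 0.92 ± 0.06. Internal parts of MT rose by 0.63 ± 0.14 at 2 h and 1.27 ± 0.13 at 4 h.

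By subfamily, 92 of the 108 passed the filter on low counts in the time course, and counts of calls refer to those. At 2 h of LPS 40 rose and 5 fell in WT cells, against 39.2% and 5.4% of all transposable element subfamilies, and at 4 h 57 rose and 5 fell, against 58.9% and 6.77%. The median log2 fold change of the ERVL-MaLR subfamilies was 0.31 at 2 h and 0.52 at 4 h, beside 0.28 and 0.50 over all subfamilies. The split turned with the scaling. On plain gene totals 16 rose and 26 fell at 2 h and 16 rose and 31 fell at 4 h. On totals of transposable elements 23 rose and 25 fell, then 27 rose and 32 fell. Here and below, counts of calls under other scalings, replicate blocks and further alternatives are given without the share over all features. They are therefore not read as particular to ERVL-MaLR. With the TMM factors 42 of 52 LTR subfamilies and 15 of 40 internal ones rose at 4 h, among them all 9 MT LTR subfamilies, and the difference between LTR and internal names was not tested. MLT1D, ORR1E, MTE2b, MTE-int, MLT1E1A and MTB, described next, were higher than at 0 h at both times under the 3 scalings.

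MLT1D rose most at 2 h. It lay between 104 and 131 CPM over the 6 libraries at 0 h, at 354, 410, 431, 440 and 479 CPM at 2 h, and between 240 and 338 CPM at 4 h. The 3 groups did not overlap, and the log2 fold change was 2.22 ± 0.10 at 2 h (adjusted p = 1.3e-17) and 1.88 ± 0.10 at 4 h (2.5e-16). ORR1E also rose, by 1.10 ± 0.12 at 2 h (6.9e-09) and 1.29 at 4 h, so that its fold change was not largest at 2 h. Its levels went from 235 ± 30 to 384 ± 63 and 365 ± 41 CPM.

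MTE2b, a mouse MT LTR, and MTE-int rose mainly at 4 h. MTE2b ran from 83.4 to 143 CPM at 0 h, stood at 108, 163, 168, 197 and 203 CPM at 2 h and ran from 224 to 320 CPM at 4 h. The groups at 0 and 2 h overlapped, and the 4 h libraries lay above both (log2 fold change against 0 h 1.80 ± 0.14, adjusted p = 2.9e-12). MTE-int went from 130 ± 25 to 191 ± 50 and 330 ± 47 CPM (2.00 ± 0.16 at 4 h, 2.9e-12). MLT1E1A went from 5.88 ± 0.99 to 12.4 ± 3.5 and 16.1 ± 2.1 CPM (1.47 ± 0.16 at 2 h and 2.10 ± 0.16 at 4 h, 1.4e-08 and 1.8e-12), and MTB from 86 ± 11 to 157 ± 62 and 179 ± 27 CPM (1.27 ± 0.19 and 1.71 ± 0.18, 2.2e-06 and 1.5e-09).

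ORR1E aside, the 5 most counted subfamilies gave these values. MTD rose by 0.92 ± 0.09 at 2 h and 0.90 at 4 h with the TMM factors (adjusted p = 1.0e-09 and 2.1e-10), and its 4 h difference was 0.25 on plain gene totals and 0.02 on totals of transposable elements. MTC rose by 0.68 ± 0.12 and 0.84, where the 4 h difference was 0.19 and -0.03 on those other scales. ORR1D1 rose by 0.41 (0.012) and 0.59 with the TMM factors, but stood at 0.01 and -0.07 on plain gene totals and at -0.13 and -0.29 on totals of transposable elements. ORR1A2 was at 0.18 at 2 h (0.27) and rose by 0.47 at 4 h (0.0018) with the TMM factors, but stood at -0.21 and -0.19 on plain gene totals and at -0.36 and -0.41 on totals of transposable elements. The directions of ORR1D1 and ORR1A2, and that of MTC at 4 h, thus turned with the scaling. Subfamilies that fell at 2 h, under all 3 scalings, were mostly internal parts: MLT1A0-int (-0.61), MLT1B-int (-0.58 ± 0.19, 0.014), ORR1B1-int (-0.41, 0.011) and MT-int (-0.35, 0.018), along with the LTR MLT1G (-0.47 ± 0.19, 0.048). ORR1B1-int went from 47.8 to 27.4 and 24 CPM over the time course.

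**Figure D3:**
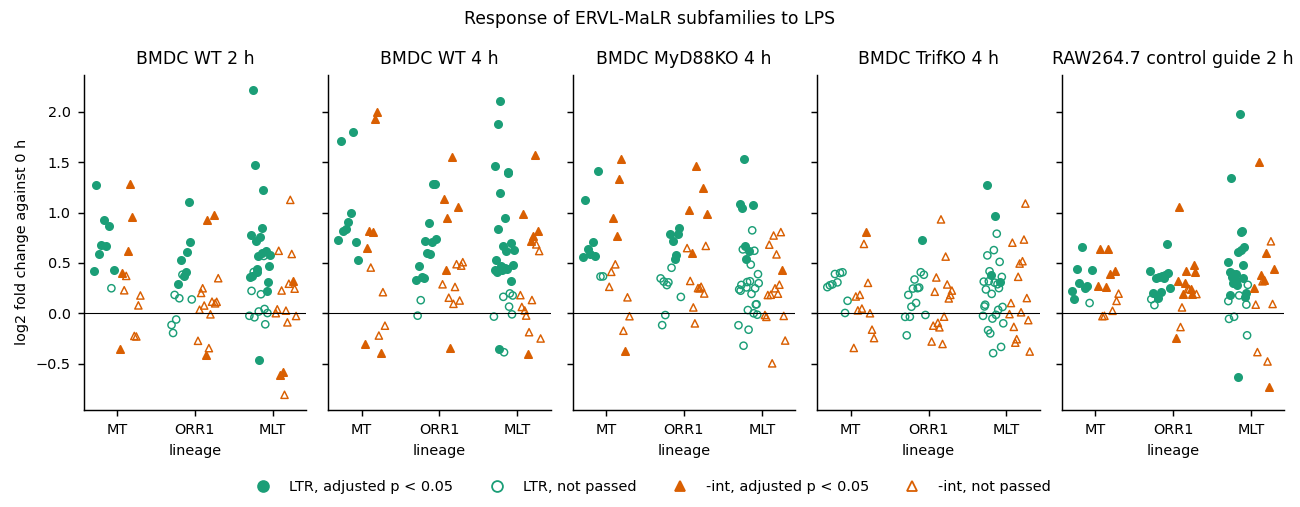
Log2 fold change with LPS of each tested ERVL-MaLR subfamily by lineage, in 5 panels for comparisons of the time course and of RAW264.7 cells; circles are LTR names, triangles internal parts, and filled symbols passed an adjusted p of 0.05. MLT1D stands highest in WT at 2 h (2.22) and MLT1H in RAW264.7 cells (1.98).

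Single copies carried most of the gain of several subfamilies. In WT cells at 4 h, MLT1D 1084922 held 94.2% of the net gain of MLT1D (TMM-scaled CPM, gains less losses), MLT1E1A 2483593 held 91.0% of that of MLT1E1A, and ORR1G 4655515 held 94.6% of that of ORR1G. At the same time MTE-int 319892 held 63.4% of the gain of MTE-int, MTD-int 3532452 60.8%, and MTB 1909512 60.03% of that of MTB. The gain of MTD was spread wider, with 23.7% in MTD 2315871, as was that of MTE2b with 23.99% in MTE2b 323618. MLT1A1 3843709 held 36.3% of the gain of MLT1A1. Each subfamily was also summed without its 10 most counted copies. In WT cells 2 ERVL-MaLR subfamilies had then risen and 0 fallen at 2 h, and 26 risen and 0 fallen at 4 h. In RAW264.7 cells with the control guide these were 53 and 0. The share over all subfamilies summed this way is not given, so these counts are not read as particular to ERVL-MaLR. MLT1E1A 2483593, MTE-int 319892, MTE2b 323618, MTB 1909512, MLT1A1 3843709 and ORR1G 4655515 are described because of these gains, which were seen first.

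**Figure D4:**
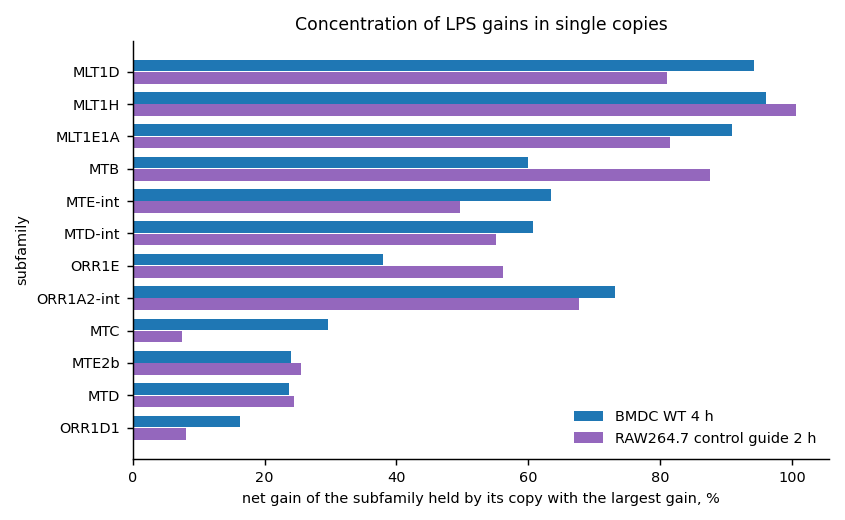
Percent of the net LPS gain (TMM-scaled CPM) of 12 ERVL-MaLR subfamilies held by the 1 copy with the largest gain, in WT BMDCs at 4 h and in RAW264.7 cells with the control guide at 2 h. MLT1D and MLT1E1A stand over 80% in both cell types, whereas the top copies of MTC and ORR1D1 in RAW264.7 cells hold 7.5% and 8.0%.

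Of single copies, 6853 had at least 10 counts in at least 3 libraries of the time course, and counts of copies describe only those. At 2 h 1386 of them rose and 806 fell in WT cells (20.3% and 10.9% of all transposable element copies tested), and at 4 h 1985 rose and 1045 fell (28.4% and 14%). On plain gene totals these were 1004 and 1568 at 2 h and 1169 and 2218 at 4 h, and on totals of transposable elements 1129 and 1403, then 1360 and 2098, so that the larger direction turned. Many copies lay close to each other in number. Of the 6853 tested copies 70.7% lay in runs of 2 or more with gaps of at most 50 numbers, and of the copies that rose and fell at 4 h 70.3% and 55.02% lay in such runs with others called in the same direction. Whether neighbouring copies share a transcript was not tested. In WT cells at 4 h 303 of 896 MLT copies tested rose and 141 fell, as did 927 and 481 of 3091 MT copies and 755 and 423 of 2866 ORR1 copies.

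Copies already expressed before LPS included the 2 that carried MLT1D and ORR1E. MLT1D 1084922 ran from 33.4 to 56.5 CPM (median 48.4) in WT at 0 h, stood at 304, 346, 363, 380 and 414 CPM at 2 h and ran from 173 to 288 CPM (median 218) at 4 h. It had thus risen in every library by 2 h and lay lower at 4 h (log2 fold change 3.33 ± 0.17 at 2 h and 2.89 ± 0.17 at 4 h, adjusted p = 2.6e-16 and 4.2e-16). ORR1E 639794 went from 24.1 to 39.5 CPM at 0 h to 96.6, 105, 142, 146 and 153 CPM at 2 h and 82.3 to 118 CPM at 4 h, without overlap between stimulated and unstimulated libraries (2.38 ± 0.18 and 2.31 ± 0.17).

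Others were near 0 before LPS. MTD 2315871 ran from 0.542 to 2.44 CPM (median 1.11) at 0 h, stood at 31.5, 38.2, 61.5, 82.1 and 95.2 CPM at 2 h and ran from 77.5 to 164 CPM (median 96.1) at 4 h (5.91 ± 0.44 and 6.98 ± 0.46, adjusted p = 8.6e-13 and 8.5e-15). MTD 921534 went from 0.0153 to 0.165 CPM at 0 h to 1.04, 4.07, 4.90, 11.5 and 14.1 CPM at 2 h and 3.40 to 13.9 CPM at 4 h (7.34 ± 0.66 at 2 h, 5.8e-11). MTC-int 2609833 went from 0.0771 to 0.337 CPM to 4.60, 5.11, 8.08, 14.2 and 20.3 CPM and then 2.84 to 7.97 CPM (6.12 ± 0.45 and 5.42 ± 0.44). Each stimulated library of these 3 copies lay above each unstimulated one, which the rule for naming copies required of MTD 921534. MTEb 2315779 held 0 to 0.0986 CPM at 0 h, 1.07, 3.59, 5.68, 5.85 and 5.90 CPM at 2 h and 2.83 to 4.10 CPM at 4 h (6.95 ± 0.49 at 2 h, 2.2e-13). Near MTD 921534 in number, MTD 921532 went from 0.0164 to 0.22 CPM to 0.889, 4.35, 5.35, 15.5 and 19.6 CPM and then 3.67 to 17.8 CPM. The WT libraries differed widely in the latter copy, with 2 of the 6 at 4 h at 16.8 and 17.8 CPM and the other 4 at 6.28 CPM or less.

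Other copies lay near their unstimulated level in several libraries at 2 h and were high at 4 h. ORR1F 2704582 ran from 0.164 to 0.789 CPM at 0 h, stood at 0.644, 0.771, 1.69, 2.62 and 2.73 CPM at 2 h and ran from 7.11 to 17.9 CPM at 4 h. MTE2b 323618 ran from 3.58 to 8.21 CPM, then 6.51, 7.59, 14.2, 23.7 and 25.7 CPM, then 37 to 58.1 CPM. MTE2b 3495370 ran from 0.848 to 2.36 CPM, then 0.858, 1.59, 2.75, 3.64 and 3.69 CPM, then 10.1 to 21.9 CPM. In all 3 the 0 h and 2 h libraries overlapped and the 4 h libraries lay above both groups.

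2 of the copies with the largest falls were MTEa 858961 and MTE2b 2000841, a choice that required no overlap between 0 and 4 h. MTEa 858961 ran from 18.1 to 24.1 CPM at 0 h, stood at 1.59, 2.39, 2.77, 4.12 and 4.57 CPM at 2 h and ran from 0.494 to 1.22 CPM at 4 h, with no overlap between any of the groups (-3.91 ± 0.24 at 4 h, adjusted p = 1.3e-15). MTE2b 2000841 ran from 0.977 to 4.54 CPM, then from 0.0723 to 0.306 CPM, then from 0 to 0.102 CPM (-4.92 ± 0.58 at 4 h, 1.0e-08). The copy with most counts of all, MTD 3847672, ran from 208 to 346 CPM at 0 h, stood at 202, 216, 294.5, 296.05 and 464 CPM at 2 h and ran from 95.03 to 308 CPM at 4 h, with overlap between the groups. With the TMM factors it rose by 0.65 ± 0.22 at 2 h (adjusted p = 0.022) and was at 0.14 at 4 h (0.63), where it was at -0.48 on plain gene totals. At 2 h it held the largest gain of any MTD copy, 18.5% of the net gain of MTD.

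**Figure D5:**
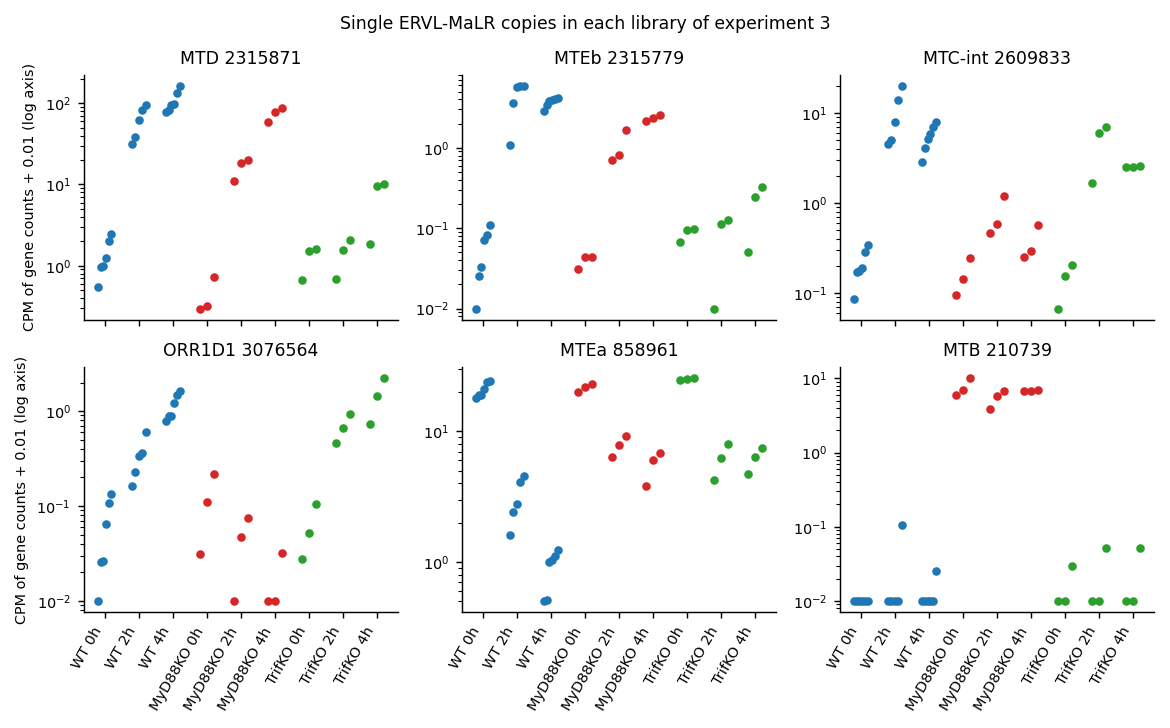
6 ERVL-MaLR copies in each library of the LPS time course, in CPM plus 0.01 on a log axis; each point is a library. MTD 2315871 and MTEb 2315779 are high in stimulated WT and MyD88KO libraries, MTC-int 2609833 and ORR1D1 3076564 in stimulated WT libraries and those labelled TrifKO, MTEa 858961 goes down in all, and MTB 210739 is high in MyD88KO libraries at every time.

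Many copies followed a gene across libraries. Each of the 100 copies with most counts was compared with 13426 genes over the 65 libraries, on log2 of CPM plus 0.1, and the most alike gene was taken. The highest correlation per copy had a median Pearson r of 0.983 (0.771 to 0.999). At least 0.95 was reached by 79 copies, which held 27.9% of all ERVL-MaLR counts, and at least 0.99 by 39 copies with 32 different genes. Libraries share depth, cell type and LPS, and the best of 13426 genes is high by selection, so these values are descriptions. Where the gene order of GENCODE release 21 was set against the running numbers of the 39 copies, Spearman's rho was 0.973.

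The most alike genes, taken after the values were seen, are in part well known LPS or interferon targets. MLT1D 1084922 followed Tnfaip2, a gene induced by TNF (r = 0.998), at a median of 8.404 copy counts per 100 gene counts with a coefficient of variation of 0.059 across libraries. MTD 2315871 followed Ifit1 (0.985), MTD-int 3532452 Oas1g (0.959), MTB 3532175 Oas3 (0.986), MLT1E1A 2483593 Ifih1 (0.989), MTE2b 323618 Ifi209 (0.993) and MLT1A1 3843709 Usp18 (0.986), all interferon-stimulated genes. MTC-int 2609833 followed Il1bos, an RNA opposite the interleukin gene Il1b (0.994), ORR1F 190594 the chemokine gene Cxcl3 (0.948), and ORR1E 639794 Plek (0.991). MLT1H 2652620 followed Srxn1, a redox enzyme gene (0.998, 15.5 copy counts per 100 gene counts, coefficient of variation 0.035), and MTEa 858961 followed the receptor gene Cd300lb (0.997). The ratio of copy to gene counts was less steady for the others. Its coefficient of variation was 0.082 for ORR1E 639794, 0.102 for MTEa 858961, 0.186 for MTB 3532175 and 0.252 for MLT1E1A 2483593, then 0.367 for MLT1A1 3843709, 0.393 for MTD-int 3532452, 0.43 for MTC-int 2609833, 0.457 for MTD 2315871, 0.548 for MTE2b 323618 and 1.04 for ORR1F 190594. Whether the reads of a copy belong to the transcript of such a gene was not tested.

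In MyD88KO cells the family rose at 4 h. MyD88KO libraries stood at 4441, 4589 and 4791 CPM at 0 h, 4912, 5234 and 5483 CPM at 2 h, then 5533, 5560 and 5695 CPM at 4 h, so that each time lay above the one before. The log2 fold change was 0.39 ± 0.14 at 2 h (adjusted p = 0.066) and 0.63 ± 0.14 at 4 h (0.00056). Cohort numbers paired these libraries, and with the replicate block the 2 h value of 0.39 had an adjusted p of 0.00024. On plain gene totals the 4 h value was 0.28 (0.080). The libraries labelled TrifKO stood at 5173, 5523 and 5617 CPM, then 5599, 5768 and 5902 CPM, then 5555, 5773 and 6042 CPM, and the log2 fold changes were 0.34 ± 0.14 at 2 h and 0.32 ± 0.14 at 4 h (0.078 and 0.079).

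The family response differed between the libraries labelled TrifKO and WT at 4 h by -0.58 ± 0.17 (adjusted p = 0.010), but by -0.16 on plain gene totals (0.51). Without the library labelled TrifKO at 0 h, replicate 3, it was -0.57 (0.024), and without the 4 h replicate 3, whose Ticam1 was low, -0.55 (0.044). At 2 h it was -0.32 ± 0.17 (0.67). MyD88KO responses differed from WT by -0.26 at 2 h and -0.28 at 4 h (0.80 and 0.30). These comparisons share the WT libraries. Before LPS the family differed from WT by -0.17 in MyD88KO (0.41) and by 0.15 in the libraries labelled TrifKO (0.55).

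The ERVL-MaLR share of LTR counts was 32.90, 34.01 and 34.87% in MyD88KO cells at 0 h, below all WT libraries at that time (exact p = 0.0119, adjusted p = 0.0873). Against only the low set of WT libraries the difference was -2.78 and against the high set -3.48 percentage points. The other LTR families differed as well at 0 h, each with the same exact and adjusted p. ERVL averaged 8.72% against 9.55% in WT and ERVK 33.9% against 36.3%, while ERV1 averaged 23.3% against 16.9%. The ERVL-MaLR share in MyD88KO cells went to 31.34, 34.19 and 34.48% at 2 h and 31.07, 33.24 and 34.21% at 4 h, overlapping with 0 h. The libraries labelled TrifKO went from 37.35, 37.43 and 37.98% to 34.63, 35.11 and 36.27% and 33.74, 34.16 and 36.09%, without overlap between stimulated and unstimulated libraries, and an exact p of 0.1 was the smallest possible. Their mean shares of ERVL and ERVK also went down, from 9.43% to 8.14% and 8.18% and from 35.5% to 29.6% and 30.4%.

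By lineage, the libraries labelled TrifKO gave the following responses, which were not tested against each other. MT was at 0.34 at 2 h and 0.32 at 4 h (adjusted p = 0.076 and 0.090), and its 4 h response was lower than in WT by 0.72 on the log2 scale under TMM factors (-0.72 ± 0.18, 0.0024), in the same direction under all 3 scalings. MLT rose by 0.64 and 0.49 (2.1e-06 and 9.4e-05), and its response differed from WT by -0.41 ± 0.11 (0.0042), which was 0.01 on plain gene totals and 0.13 on totals of transposable elements. ORR1 was at 0.22 and 0.26 (0.25 and 0.16), with a difference of -0.46 ± 0.20 (0.067). In MyD88KO cells at 4 h MT rose by 0.74 (0.00012), ORR1 by 0.52 (0.0058) and MLT by 0.49 (5.6e-05). With the TMM factors the MLT response differed from WT by -0.40 ± 0.11 (0.027). The factors themselves differed by 0.30 in that comparison, where the median gene stood at 0.02 with them and at 0.32 on plain gene totals. The size of the MLT difference thus depends on the scaling.

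At 2 h 4 subfamilies rose and 0 fell in MyD88KO cells (7.72% of all subfamilies called), and at 4 h 30 rose and 1 fell (34.4% rose and 2.54% fell). With the replicate block the called subfamilies numbered 25 at 2 h and 54 at 4 h. In the libraries labelled TrifKO 6 rose and 0 fell at 2 h (6.35% called) and 6 rose and 0 fell at 4 h (10.4% called). The MyD88KO split on plain gene totals was 3 risen and 3 fallen at 2 h and 13 and 9 at 4 h, and that of the libraries labelled TrifKO was 2 and 6 at 2 h and 2 and 3 at 4 h. On totals of transposable elements the MyD88KO splits were 12 and 7, then 16 and 18, and those labelled TrifKO 9 and 8, then 6 and 7. MLT1K, which rose in the libraries labelled TrifKO at 4 h (0.31), changed direction with the scaling.

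MLT1D rose in every genotype. Its MyD88KO libraries stood at 101, 114 and 114 CPM at 0 h, 257, 277 and 337 CPM at 2 h, then 157, 175 and 204 CPM at 4 h. Those labelled TrifKO stood at 121, 124 and 127 CPM, then 350, 355 and 362 CPM, then 231, 252 and 284 CPM. No stimulated library overlapped with its unstimulated group, and the log2 fold changes at 2 h were 1.62 ± 0.14 and 1.78 ± 0.14 (adjusted p = 3.7e-10 and 3.5e-11). ORR1E rose by 0.73 and 0.83 at 2 h (0.0031 and 0.0006) and MTD by 0.60 and 0.49 (0.0018 and 0.010).

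Some subfamilies passed the threshold for a difference of response between genotypes. At 4 h 2 subfamilies responded less in MyD88KO than in WT cells and 0 more (2.75% of all subfamilies called): MLT1D (-0.83 ± 0.16, adjusted p = 0.0028) and ORR1G (-0.58 ± 0.13, 0.0065). With plain gene totals 0 responded less and 1 more, and on totals of transposable elements 1 less and 2 more. At 2 h this difference was called for 0 of 92 (0.106% of all subfamilies called), with 7 at an unadjusted p under 0.05 and 1 called by DESeq2. Against WT at 4 h, 19 subfamilies responded less in the libraries labelled TrifKO and 1 more (16.6% of all called), or 5 less and 5 more on plain gene totals and 12 less and 6 more on totals of transposable elements. DESeq2 called 23 less and 1 more. MT held 8 of the 19, MLT 7 and ORR1 4, where the lineages had 20, 59 and 29 subfamilies before the filter on low counts. The filter left 92 in all, and the numbers it left in each lineage are not given, so the lineages are not compared. The median over the ERVL-MaLR subfamilies was -0.31 beside -0.30 over all, so that the shift was not particular to this family. With subfamilies summed without their 10 most counted copies, 0 response differences from WT were called at 4 h for MyD88KO or for the libraries labelled TrifKO.

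MLT1E1A showed the difference between genotypes in levels. It stood at 4.86, 5.20 and 5.92 CPM in MyD88KO cells at 0 h and 10.8, 12.3 and 13.3 CPM at 4 h, but at 6.09, 6.51 and 6.59 CPM and then 5.53, 7.001 and 7.85 CPM in the libraries labelled TrifKO. The groups of the latter overlapped, and the response differed from WT by -1.78 ± 0.27 (adjusted p = 2.7e-05). MTE2b went from 98.1, 105 and 121 CPM to 212, 214 and 250 CPM in MyD88KO cells and from 123, 134 and 138 CPM to 141, 149 and 156 CPM in the libraries labelled TrifKO. Its response differed from WT by -1.39 ± 0.24 in the latter (9.1e-05), and those of MTB and MLT1A1 by -1.44 ± 0.31 (0.0013) and -1.39 ± 0.25 (0.00018). MTE2a-int was the 1 subfamily with a larger response (0.52 ± 0.18, 0.043).

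By copy, 429 rose and 82 fell in MyD88KO cells at 2 h (6.19% and 0.95% of all copies) and 908 rose and 165 fell at 4 h (13.2% and 2.4%). With the replicate block 821 copies were called at 2 h. In the libraries labelled TrifKO 262 rose and 120 fell at 2 h (3.85% and 1.37%) and 290 rose and 122 fell at 4 h (4% and 1.41%). On plain gene totals the splits were 325 and 141, then 633 and 383 in MyD88KO cells, and 178 and 221, then 188 and 186 in the libraries labelled TrifKO. On totals of transposable elements they were 393 and 155, 657 and 467, 268 and 200, and 236 and 190. Without the library labelled TrifKO at 0 h, replicate 3, the called copies numbered 229 at 2 h and 205 at 4 h.

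Against WT at 4 h, 164 copies responded less and 27 more in the libraries labelled TrifKO (2.37% of all copies called), or 106 less and 89 more on plain gene totals and 144 less and 81 more on totals of transposable elements. Without the 0 h replicate 3 they numbered 123 and without the 4 h replicate 3 108. In MyD88KO cells 6 responded less and 8 more than in WT (0.126% called), or 4 less and 21 more on plain gene totals and 6 less and 14 more on totals of transposable elements. Cohort as a replicate block gave 31 called copies for MyD88KO. At 0 h 7 copies were higher and 2 lower in MyD88KO than in WT cells (0.157% called). In the libraries labelled TrifKO edgeR called 0 of 6853 copies (0% of all copies), with 279 at an unadjusted p under 0.05, and DESeq2 0.

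MTD 2315871, the copy that followed Ifit1, responded in MyD88KO cells and less in the libraries labelled TrifKO. It stood at 0.287, 0.308 and 0.71 CPM in MyD88KO cells at 0 h, 10.9, 18.4 and 20.05 CPM at 2 h, then 58.9, 78.3 and 88.2 CPM at 4 h. In the libraries labelled TrifKO it stood at 0.652, 1.52 and 1.59 CPM, then 0.683, 1.54 and 2.05 CPM, then 1.84, 9.69 and 10.1 CPM, and replicate 3 gave the 1.84 CPM. The 2 h libraries labelled TrifKO overlapped with 0 h, and the 4 h response was lower than in WT (-4.23 ± 0.66, adjusted p = 7.6e-05) and than in MyD88KO cells (-5.04 ± 0.78, 2.8e-04).

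MTE2b 323618 and ORR1F 2704582, which followed the death ligand gene Tnfsf10 (r = 0.98), differed likewise. MTE2b 323618 went from 3.10, 3.94 and 6.20 CPM at 0 h to 34.1, 34.7 and 45.99 CPM at 4 h in MyD88KO cells, and from 6.92, 7.09 and 7.28 CPM to 2.56, 7.96 and 8.38 CPM in the libraries labelled TrifKO (difference from WT -3.69 ± 0.57, adjusted p = 6.4e-05). ORR1F 2704582 went from 0.203, 0.205 and 0.237 CPM to 5.40, 6.89 and 9.58 CPM and from 0.384, 0.441 and 0.505 CPM to 0.268, 1.76 and 1.80 CPM (-3.75 ± 0.75, 0.0025). The lowest 4 h value labelled TrifKO lay below the 0 h libraries of that label for each of the 2 copies.

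MLT1E1A 2483593 went from 0.36, 0.366 and 0.591 CPM to 5.59, 7.53 and 8.29 CPM in MyD88KO cells and from 0.463, 0.634 and 0.794 CPM to 0.805, 1.65 and 1.76 CPM in the libraries labelled TrifKO (-3.55 ± 0.46, adjusted p = 4.3e-06). MTE-int 319892, which followed the cell surface receptor gene Slamf7 (r = 0.999), rose in both, from 28.8, 32.0 and 47.2 to 95.1, 116 and 120 CPM and from 55.9, 58.5 and 60.9 to 99.6, 112 and 120 CPM. Its response in the libraries labelled TrifKO was lower than in WT (-1.39 ± 0.33, 0.014). MTEb 2315779 stood at 0.0215, 0.0338 and 0.0342 CPM and then 2.16, 2.32 and 2.57 CPM in MyD88KO cells, and at 0.0577, 0.0842 and 0.0882 CPM and then 0.0413, 0.231 and 0.315 CPM in the libraries labelled TrifKO (difference of the latter from WT -5.37, 0.00081). In MyD88KO cells ORR1C1 921540, MTE2b 921542 and MTE-int 2758476 were at 0 in all libraries at 0 h and were at least 95.3-fold, 73.3-fold and 63.2-fold higher at 4 h, with 3 counts over the group as the floor.

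A smaller set leaned the other way. MTC-int 2609833 stood at 0.0856, 0.135 and 0.237 CPM in MyD88KO cells at 0 h, 0.456, 0.574 and 1.20 CPM at 2 h, then 0.244, 0.288 and 0.564 CPM at 4 h. In the libraries labelled TrifKO it stood at 0.0577, 0.147 and 0.194 CPM, then 1.66, 5.97 and 7.13 CPM, then 2.50, 2.50 and 2.58 CPM. Its MyD88KO values at 4 h stayed under 0.6 CPM where WT lay at 2.84 to 7.97 CPM, and the response was lower than in WT (-3.82 ± 0.80, adjusted p = 0.034). MTA_Mm-int 1805047 went from 0.194, 0.205 and 0.422 CPM to 0.469, 0.477 and 0.786 CPM at 4 h in MyD88KO cells, from 0.106, 0.147 and 0.365 CPM to 1.51, 2.41 and 2.58 CPM in the libraries labelled TrifKO and from 0.129 to 0.312 CPM to 3.87 to 12.8 CPM in WT (MyD88KO against WT -4.31, 0.0028).

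ORR1D1 3076564, which followed the B cell and myeloid receptor gene Cd72 (r = 0.976), went from 0 to 0.122 CPM at 0 h to 0.768 to 1.61 CPM at 4 h in WT. It went from 0.0176, 0.0421 and 0.0961 CPM to 0.723, 1.43 and 2.22 CPM in the libraries labelled TrifKO. In MyD88KO cells it stood at 0.0215, 0.101 and 0.205 CPM at 0 h and at 0, 0 and 0.0217 CPM at 4 h, so that the MyD88KO libraries at 4 h lay below all others of that time (adjusted p of the difference from WT 0.00018). ORR1F 190594 went to 1.22, 2.92 and 6.03 CPM at 4 h in MyD88KO cells and to 4.48, 20.04 and 22.1 CPM in the libraries labelled TrifKO, where WT ran from 5.72 to 23.01 CPM.

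MTEa 858961 fell in every genotype of the time course, but less in MyD88KO cells and in the libraries labelled TrifKO. It stood at 19.8, 21.96 and 22.8 CPM in MyD88KO cells at 0 h and 3.77, 6.06 and 6.87 CPM at 4 h, and at 24.8, 24.9 and 25.6 CPM and then 4.68, 6.35 and 7.45 CPM in the libraries labelled TrifKO. All of these 4 h libraries lay above the highest WT one of 1.22 CPM, and the responses differed from WT by 2.30 and 2.11 (adjusted p = 0.0016 and 0.00045). MTB 210739 differed before LPS: it was at 0 in all 6 WT libraries and stood at 5.96, 7.04 and 10.1 CPM in MyD88KO cells at 0 h. It stayed at 3.84, 5.74 and 6.86 CPM at 2 h, then 6.78, 6.85 and 6.87 CPM at 4 h, while WT libraries, those of the same low set included, held at most 0.0964 CPM. At 0 h it was at least 888-fold higher in MyD88KO than in WT cells, and MTEa 210738 and MTEa 210742, close to it in number, were at least 341-fold and 243-fold higher. It followed Tfcp2l1 (r = 0.95).

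In RAW264.7 cells LPS raised the family within 2 h. Libraries with the control guide stood at 4118, 4245 and 4512 CPM at 0 h, then 4685, 5133 and 5238 CPM at 2 h, without overlap (log2 fold change 0.40 ± 0.04, adjusted p = 1.6e-07). Guide 1 went from 3999, 4133 and 4135 to 4698, 4732 and 5054 CPM (0.41 ± 0.04, 1.1e-07) and guide 2 from 3866, 4000 and 4162 to 4917, 4971 and 5036 CPM (0.49 ± 0.04, 1.1e-08). For the control guide the change was 0.23 on plain gene totals and 0.11 on totals of transposable elements. The TMM factors moved by -0.18.

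The ERVL-MaLR share of LTR counts went from 25.09, 25.12 and 25.64% to 19.99, 21.72 and 22.66% with the control guide, from 25.88, 25.99 and 26.07% to 21.47, 22.85 and 23.65% with guide 1, and from 25.71, 25.93 and 26.84% to 22.59, 23.18 and 23.85% with guide 2. No group of 2 h overlapped with its 0 h group, and the exact p of 0.1 was the smallest possible each time. ERV1 rose by 1.11 in the control guide, against 0.20 for ERVK and 0.22 for ERVL. Among the lineages MLT rose by 0.64 ± 0.03, MT by 0.37 ± 0.04 and ORR1 by 0.34 ± 0.05, and MT and ORR1 were slightly negative on totals of transposable elements.

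With the control guide 62 of 91 tested subfamilies rose and 3 fell (50.5% and 5.3% of all subfamilies), or 30 and 9 on plain gene totals and 18 and 23 on totals of transposable elements. Guide 1 gave 56 risen and 3 fallen (57.4% of all called) and guide 2 64 and 2 (61.6% of all called). On plain gene totals these were 32 and 7 for guide 1 and 40 and 5 for guide 2, and on totals of transposable elements 16 and 23, then 16 and 25. By copy, 1129 of 6418 rose and 338 fell with the control guide (15.9% and 4.81%), or 898 and 512 on plain gene totals and 817 and 674 on totals of transposable elements. Guide 1 gave 1176 and 322 (21.4% of all called) and guide 2 1261 and 302 (22% of all called). Rises made up 78.5% and 80.7% of these calls, 66.1% and 68.7% on plain gene totals, and 56.6% and 54.96% on totals of transposable elements.

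MLT1H led in these cells. With the control guide it stood at 49.5, 51.9 and 54.2 CPM at 0 h, then 164, 188 and 190 CPM at 2 h (1.98 ± 0.06, adjusted p = 1.2e-20), and its copy MLT1H 2652620 went from 37.8, 41.1 and 43.1 to 155, 178 and 182 CPM. The stimulated and unstimulated libraries were far apart in both. In WT BMDCs the same copy ran from 40.5 to 54.8 CPM at 0 h, stood at 53.9, 62.7, 64.2, 84.0 and 86.1 CPM at 2 h and ran from 28.6 to 85.2 CPM at 4 h. MLT1D rose by 1.34 ± 0.06 (1.8e-17) from 77.2, 82.3 and 85.6 to 173, 185 and 190 CPM. ORR1A2-int rose by 1.06 ± 0.09 (7.2e-11) from 53.2, 53.6 and 57.1 to 84.1, 109 and 109 CPM.

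ORR1A2-int 295533 was a copy of RAW264.7 cells. With the control guide it went from 0.0948, 0.297 and 0.364 CPM to 27.02, 37.7 and 42.04 CPM (7.27 ± 0.33, adjusted p = 5.1e-18), with guide 1 from 0.283, 0.299 and 0.394 to 22.1, 30.7 and 34.9 CPM, and with guide 2 from 0.104, 0.225 and 0.488 to 21.8, 46.1 and 49.3 CPM. Of the 35 BMDC libraries of the time course 33 were at 0, and the others held 0.0217 and 0.0413 CPM. The 2 cell types differ in their strain labels and were sequenced in separate experiments. Cell type, strain and experiment therefore cannot be told apart. Other copies were low in RAW264.7 cells: MTD 3847672 held 0.182 to 0.664 CPM in the control guide where WT BMDCs held over 95 CPM, and MTE-int 319892 was at 0 in 5 of its 6 control libraries.

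MTC-int 2609833 responded with every guide. It went from 0, 0 and 0.0469 CPM to 7.11, 7.63 and 7.82 CPM with the control guide, from 0, 0.0298 and 0.0492 to 6.80, 7.04 and 8.57 CPM with guide 1, and from 0, 0 and 0.026 to 8.42, 13.2 and 15.4 CPM with guide 2. MTE2b 324134 and MLT1D 1072767 were at 0 in the control guide at 0 h and stood at 1.50, 2.12 and 2.63 CPM and at 1.18, 1.29 and 1.70 CPM at 2 h, at least 103-fold and 68.6-fold higher, while no BMDC library of the time course held more than 0.108 CPM of either. MTD 2315871 went from 0.0455, 0.0625 and 0.119 to 1.06, 1.07 and 2 CPM with the control guide. MTE2b 2000841 fell from 12.98, 13.3 and 13.9 to 2.62, 3.26 and 3.62 CPM, the direction it had in WT BMDCs. The 2 guides' LPS responses differed from that of the control guide in 0 of 91 subfamilies and 0 of 6418 copies (edgeR, with an unadjusted p under 0.05 in 2 and 4 subfamilies and in 275 and 320 copies, and also 0 by DESeq2). Over all subfamilies and all copies edgeR likewise called 0%.

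Before LPS, guide 1 had 4 copies higher and 9 lower than the control guide (0.245% of all copies called) and guide 2 had 6 higher and 13 lower (0.363%). Of the subfamilies edgeR called 0 for each guide, against 1.7% and 5.2% of all subfamilies. An unadjusted p under 0.05 was reached by 9 and 22, and DESeq2 called 1 and 2. MTE2b-int 678544 stood at 0.0228, 0.0938 and 0.213 CPM in the control guide, 2.83, 2.93 and 2.98 CPM in guide 1 and 0.0271, 0.0649 and 0.0984 CPM in guide 2 (guide 1 against control 4.74 ± 0.39, adjusted p = 1.3e-09). ORR1F 1915796 stood at 0.782, 0.956 and 1.31 CPM in the control guide, 0.0738, 0.164 and 0.219 CPM in guide 1 and 0.298, 0.38 and 0.429 CPM in guide 2 (-2.69 and -1.44, 8.3e-06 and 0.0095). ORR1D2 1605979 was higher with both guides, at 5.04, 5.31 and 6.07 CPM and 5.96, 5.99 and 6.36 CPM against 2.87, 3.80 and 3.96 CPM (0.63 and 0.79, 0.021 and 0.0012).

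In unstimulated BMDCs the family sums of Suv39h1KO and IfnarKO libraries lay within the spread of the WT replicates. WT libraries stood at 4170, 5036 and 5786 CPM, Suv39h1KO at 4221, 4900 and 5279, IfnarKO at 5042, 5159 and 5328, and Suv39h1KO IfnarKO at 4337, 4765 and 5193 CPM. All groups overlapped (Suv39h1KO -0.05, adjusted p = 0.85, and IfnarKO 0.07, 0.95). None of 91 subfamilies was called in any of the 4 comparisons by edgeR or DESeq2, against 0.53% and 0.636% of all subfamilies for Suv39h1KO among Ifnar wild-type and IfnarKO cells and 0.106% and 0.106% for IfnarKO among Suv39h1 wild-type and Suv39h1KO cells. An unadjusted p under 0.05 was reached by 0 and 2 for Suv39h1KO and by 0 and 0 for IfnarKO.

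Single copies did differ. Of 6352 tested, 15 were higher and 4 lower in Suv39h1KO than WT cells (0.257% of all copies called), 16 and 3 for the same comparison among IfnarKO cells (0.235%), 0 and 8 in IfnarKO cells (0.0405%) and 1 and 10 for that comparison among Suv39h1KO cells (0.0726%). Cohort numbers paired these libraries, and with cohort as replicate block the called copies numbered 49, 42, 16 and 36. ORR1B1 149604 stood at 0.0402, 0.207 and 0.272 CPM in WT, 0.682, 0.96 and 1.88 CPM in Suv39h1KO, 0.0167, 0.0589 and 0.0592 CPM in IfnarKO and 0.389, 0.398 and 0.568 CPM in Suv39h1KO IfnarKO libraries (Suv39h1KO against WT 2.77 ± 0.50, adjusted p = 0.012). MTEb 4201312 was lower, at 0.237, 0.262 and 0.379 CPM in Suv39h1KO against 0.523, 1.22 and 1.58 CPM in WT (-1.92 ± 0.38, 0.028). For either copy the Suv39h1KO libraries did not overlap with WT, which the rule for naming copies required.

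Of the 8 copies lower in IfnarKO cells 6 lay in 2 runs of close numbers. MTB 3532175, which followed Oas3 across the series, stood at 2.14, 2.66 and 3.09 CPM in WT and 2.53, 3.19 and 3.64 CPM in Suv39h1KO cells, but at 0.138, 0.434 and 0.675 CPM in IfnarKO and 0.188, 0.222 and 0.365 CPM in Suv39h1KO IfnarKO cells (IfnarKO against WT -2.59 ± 0.37, adjusted p = 0.0063). MTA_Mm-int 1903490 stood at 0.276, 1.62 and 1.92 CPM in WT and was at 0 in all IfnarKO libraries, at least 93.6-fold lower (taking 3 counts over the group as the floor, 0.0024). MTD-int 3532452 stood at 0.399, 0.678 and 2.29 CPM in Suv39h1KO and at 0 in all Suv39h1KO IfnarKO libraries, at least 69.9-fold lower (0.0025). MTD 2315871 held 0.346, 0.523 and 0.714 CPM in WT and 0, 0 and 0.0334 CPM in IfnarKO libraries.

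Genes that silence LTR elements were read from a list of 31, all of which passed the filter on genes. They include the KAP1 gene Trim28, the H3K9 methyltransferase gene Setdb1, the maintenance DNA methyltransferase gene Dnmt1 and the histone chaperone gene Daxx. In WT cells 7 rose and 12 fell at 2 h (21.3% and 24.6% of all genes), with a median log2 fold change of -0.28 beside -0.05 over all genes. At 4 h 8 rose and 13 fell (30% and 35.1%), with -0.10 beside -0.07. Daxx rose by 3.66 ± 0.17, Morc3 by 1.81 ± 0.12 and Resf1 by 1.65 ± 0.10 at 4 h, while Dnmt1 (-1.61 ± 0.17), Cbx3 (-1.64 ± 0.16), Trim28 (-0.87) and Setdb1 (-0.66) fell. In RAW264.7 cells with the control guide 3 rose and 17 fell (26.3% and 25.3% of all genes), among them Ehmt1 (-0.99 ± 0.11) and Atf7ip (-0.70), while Resf1 rose by 0.78. Of 12 genes of the 2-cell stage embryo, where class III retroviruses are known to be active, 10 were in the gene table and 0 passed the filter on low counts.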

How the data were processed

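PolyA RNA was sequenced from 65 libraries in 19 groups of BMDCs and RAW264.7 cells, with stranded libraries per the labels' protocols. The authors deposited whole-number counts per gene and per repeat copy, and the submitters' processing notes name STAR, HOMER, DESeq2 and mm10, without versions or roles. How reads that match several copies, or both a copy and a gene, were counted is not given in the sources used here, so a copy inside a transcript can hold reads of that transcript. Every column matched a sample (0 without one).

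Copies were summed to subfamilies, to the lineages MT, ORR1 and MLT with their LTR and internal parts, and to families. Library sizes were gene totals with TMM factors from genes. Single copies were tested where they had at least 10 counts in at least 3 libraries of an experiment. Sums and genes were tested where they passed the filterByExpr filter of edgeR by group. The tests used edgeR 4.0.16 (quasi-likelihood, R 4.3.3), 1 fit per experiment and level over all its groups. Benjamini-Hochberg adjustment ran over all transposable element features of a level, or over all genes, with a threshold of 0.05. The test was first checked on simulated counts. Shares were compared by two-sided exact permutation tests over libraries (scipy 1.17.1). The depth of each library, 36879570 to 95292653 gene counts, limits what can be seen of copies with few counts, and the floor for a group at 0 was 3 counts, which covers counting error only. P-values measure the spread between libraries, and WT libraries that share a cohort may make them too small.

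Cohort numbers paired libraries in the unstimulated experiment (lowest correlation of deviations 0.268), for MyD88KO (0.484) and for WT within a set (0.137). The means there were 0.451, 0.589 and 0.454. For the libraries labelled TrifKO pairing was not clear, with a lowest value of -0.264 and a mean of 0.129. Between cohorts their mean was -0.056. Within a guide of RAW264.7 cells the lowest values were 0.0591 (control guide), 0.074 (guide 1) and 0.128 (guide 2), with means of 0.12, 0.148 and 0.182. Across guides the lowest was 0.00341. Alternatives were other scalings, DESeq2 1.42.0, other filters, fits of the compared groups only, a replicate block, WT libraries of 1 set or summed by cohort, sums without the 10 copies with most counts, and leaving out each library.

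The members and lists were chosen with earlier results of these data known. Named by rule were the 5 subfamilies and copies with most counts, the 6 largest rises and falls among called subfamilies with at least 50 counts per library, and the 5 largest rises and 3 largest falls among called copies whose groups did not overlap and whose higher group averaged at least 1 CPM (overlap was allowed for response differences). Correlations with genes used log2 of CPM plus 0.1, and gene order came from GENCODE release 21 (mouse). Coordinates and sequences of copies were not used here.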

Additional observations from a re-analysis of the deposited data

Results flagged for a closer look

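Single libraries stood apart from their group in 8 of 132 groups of 4 to 10 libraries examined for the reported members, where chance gives about 1 in 20. MTD was at 809 CPM in 1 WT library at 4 h (low set, replicate 3), where the other 5 held 986 to 1057 CPM. MTC was at 272.6 CPM in WT at 2 h (low set, replicate 1) against 397 to 443 CPM. MTE2a-int was at 8.91 CPM in WT at 2 h (high set, replicate 3) against 5.67 to 6.43 CPM, and ORR1A2-int at 21.1 CPM in WT at 0 h (low set, replicate 2) against 34.4 to 39.5 CPM. That last library also held MTD 3847672 at 346 CPM where the others held 208 to 241 CPM. MTD 921534 was at 0.165 CPM in WT at 0 h (high set, replicate 1) against 0.0153 to 0.0617 CPM. MTB 210739 was at 0.0154 CPM in WT at 4 h (low set, replicate 2) and at 0.0964 CPM in WT at 2 h (high set, replicate 3), all other libraries of these groups being at 0.

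Response differences at 4 h passed an adjusted p of 0.05 (edgeR quasi-likelihood test) in several sums with the TMM factors. Those of the family and of MLT depended on the scaling, as described above. Between the libraries labelled TrifKO and WT they were -0.58 for the family (0.0102), -0.72 for MT (0.00235) and -0.41 for MLT (0.00418). By subfamily they were -1.78 for MLT1E1A (2.7e-05), -1.44 for MTB (0.00127), -1.39 for MTE2b (9.1e-05), -1.39 for MLT1A1 (0.000175), -1.26 for ORR1A1-int (0.0329), -1.24 for MTD-int (0.0161) and 0.52 for MTE2a-int (0.0432). The copies MTEb 2315779 and MTEa 858961 differed by -5.37 (0.000812) and 2.11 (0.000451).

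Between MyD88KO and WT the differences were -0.40 for MLT (0.0274), -0.83 for MLT1D (0.00277) and -0.58 for ORR1G (0.0065). By copy they were -3.82 for MTC-int 2609833 (0.0336), -4.31 for MTA_Mm-int 1805047 (0.00281), -8.38 for ORR1D1 3076564 (0.000175) and 2.30 for MTEa 858961 (0.00159). Between the libraries labelled TrifKO and MyD88KO they were -5.04 for MTD 2315871 (0.000283), 4.14 for MTA_Mm-int 6029 (0.0174) and 8.35 for ORR1D1 3076564 (0.000301). The fitted values of ORR1D1 3076564 depend on the prior count, since MyD88KO libraries at 4 h held 1 count of it. MTA_Mm-int 6029 stood at 3.11, 3.56 and 1.45 CPM in replicates 1, 2 and 3 labelled TrifKO at 4 h, the lowest being the library with little Ticam1.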

How the results depend on the processing

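The WT rises of the family at 2 and 4 h and those of RAW264.7 cells kept their direction and their side of the threshold under every alternative run. Of the other results, the following moved, and unless the alternative itself has fewer copies or libraries the cause was not tested. For the family, the WT difference between 4 and 2 h passed the threshold with the replicate block (0.31), in the low set (0.42), in the high set (0.20) and without the 10 most counted copies (0.34). MyD88KO at 2 h passed on totals of transposable elements (0.18), with the compared groups only (0.39) and with the replicate block (0.39), and at 4 h missed it on plain gene totals (0.28). The libraries labelled TrifKO passed at 2 h under the same 3 settings (0.19, 0.34 and 0.34) and at 4 h likewise (0.12, 0.32 and 0.32). For the replicate block, pairing of these libraries by cohort number was not clear. At 0 h MyD88KO against the high WT set gave -0.31 and the libraries labelled TrifKO against the low set 0.30. Response differences from WT passed for MyD88KO at 2 h on totals of transposable elements (-0.15) and against the high set (-0.31), and at 4 h likewise (-0.15 and -0.28). For the libraries labelled TrifKO at 2 h they passed on totals of transposable elements (-0.15), with WT libraries of a cohort summed (-0.39) and against the high set (-0.36), and at 4 h the difference missed it on plain gene totals (-0.16).

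Called subfamilies in WT at 2 h numbered 20 with the compared groups only, 20 with the low set and 2 without the 10 most counted copies, and at 4 h 26 without those copies. For MyD88KO at 2 h they numbered 10 by DESeq2, 19 on totals of transposable elements, 20 with the compared groups, 25 with the replicate block and 0 without the 10 copies, and at 4 h 50 with the compared groups, 54 with the replicate block and 0 without the 10 copies. For the libraries labelled TrifKO they numbered 17 at 2 h and 13 at 4 h on totals of transposable elements, 33 and 36 with the compared groups, 27 and 28 with the replicate block, and 0 and 0 without the 10 copies. DESeq2 called 9 and 8. Response differences at 4 h for MyD88KO numbered 1 on plain gene totals, 3 on totals of transposable elements, 1 against the low set, 9 against the high set and 0 without the 10 copies. Those for the libraries labelled TrifKO numbered 10 on plain gene totals, 34 against the high set and 0 without the 10 copies. In RAW264.7 cells plain gene totals gave 39 for the control guide and 39 for guide 1, and totals of transposable elements 41, 39 and 41 for the control guide and guides 1 and 2.

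Called copies with cohort as replicate block numbered 49 and 42 for Suv39h1KO among Ifnar wild-type and IfnarKO cells and 16 and 36 for IfnarKO among Suv39h1 wild-type and Suv39h1KO cells. WT at 2 h gave 848 with the low set and MyD88KO at 2 h 821 with the replicate block. The libraries labelled TrifKO gave 922 and 789 at 2 h, and 888 and 819 at 4 h, with the compared groups and with the replicate block. MyD88KO against WT at 0 h gave 14 by DESeq2, 16 with WT cohorts summed and 292 against the high set. The MyD88KO response difference at 4 h gave 52 by DESeq2, 25 on plain gene totals, 9 with the compared groups, 31 with the cohort block, 2 against the low set and 52 against the high set. Guide 1 against control at 0 h gave 20 with the replicate block, and guide 2 gave 32 with the compared groups and 35 with the replicate block. The share of LTR counts changed by -0.73 at 2 h and -3.20 at 4 h in WT with the low set and by -2.82 and -4.94 with the high set, and MyD88KO differed at 0 h by -2.78 and -3.48, where 3 against 3 libraries cannot reach an exact p under 0.1.

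Leaving out 1 library at a time gave 0.14 to 0.32 for the WT family difference between 4 and 2 h, which then passed the threshold without the 4 h replicate 2 of the low set (0.29) or the 2 h replicates 1 (0.30) or 2 (0.32) of the high set. It gave 3 to 5 called subfamilies for the libraries labelled TrifKO at 2 h and 3 to 5 at 4 h. Called copies ran from 12 to 19 for Suv39h1KO, 9 to 15 among IfnarKO cells, 2 to 8 for IfnarKO and 6 to 12 among Suv39h1KO cells. They ran from 318 to 438 for MyD88KO at 2 h, 179 to 302 for the libraries labelled TrifKO at 2 h and 181 to 366 at 4 h, 7 to 20 for the response difference of MyD88KO and 108 to 217 for that of the libraries labelled TrifKO at 4 h, 5 to 9 for guide 1 and 6 to 20 for guide 2 at 0 h. The change of the LTR share in MyD88KO cells at 2 h ran from -1.16 to 0.41 and turned positive without replicate 1 at 2 h. Of values with 1 library left out, 102 of copy counts stayed within 1.5 times and 44 did not, and of subfamily counts 119 did and 6 did not. No other call of the family changed with the replicate block. Depth limits copies with few counts, and a group at 0 counts gives only a lower bound on a fold.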
